A study of Mus musculus with 12 samples.

Results

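MHC class II presentation genes encode the proteins that load peptides from ingested material onto class II molecules and carry them to the cell surface, where CD4+ T cells read them. The 10 genes examined here were taken by symbol from the 26699 rows of the count files: the class II chains H2-Aa, H2-Ab1 and H2-Eb1, the peptide-editor chains H2-DMa, H2-DMb1 and H2-DMb2, the editor's inhibitor chains H2-Oa and H2-Ob, the invariant chain Cd74, and the transactivator Ciita. All 10 passed the filter on low counts, among 11927 genes tested.

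Synovium was dissected from wild-type C57BL/6 mice (C57BL/6J background in the methods) and cultured as explants, for 4 h, in medium with CGRP at 100 nM, the calcitonin gene-related peptide released by pain-sensing nerve fibres, or with vehicle (control). The tissue was then digested and MHC class II-positive cells were sorted for bulk RNA sequencing. MHCII+CD11c- cells carry IAIE in their sample titles and CD11c+MHCII+ cells carry CD11c, and each was sequenced with and without CGRP in 3 libraries, 12 libraries in 4 groups. The control libraries carry Healthy in their titles, and were taken as the vehicle explants that the methods describe. The labels call both populations macrophages, give no age, and do not say whether the 3 libraries of a group came from separate animals, so p-values measure the spread between libraries.

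The sort itself used an antibody to surface class II protein, so every library describes cells that still stained for class II after the 4 h. In such bulk samples, fewer cells of a type and less RNA per cell cannot be told apart. Library totals ranged from 2127191 to 5649698 counts, and depth differed with treatment. In MHCII+CD11c- cells the control libraries held 2127191 to 3310825 counts and the CGRP libraries 4009081 to 5364559, without overlap. In CD11c+MHCII+ cells the control libraries held 2455650 to 4465508 counts and the CGRP libraries 4329993 to 5649698, which overlapped. The floor of detection was taken as 3 counts. It corresponded to 0.534 to 1.34 CPM, counts scaled by the TMM-adjusted library total. Itgax, which encodes CD11c, lay at 219 to 270 CPM in the CD11c+MHCII+ control libraries and at 1.24 to 10.7 in the MHCII+CD11c- control libraries. The summed level of 8 macrophage identity genes was 4161 to 5539 CPM in MHCII+CD11c- and 1778 to 2113 CPM in CD11c+MHCII+ control libraries.

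A class II molecule pairs an alpha with a beta chain. The invariant chain fills its groove during assembly, proteases in the endosome trim that chain to a short remnant, and H2-DM exchanges the remnant for antigenic peptide, a step that H2-O restrains. Transcription of class II genes depends largely on Ciita, which binds no DNA itself but docks onto factors assembled on paired promoter elements called the X and Y boxes. Macrophages are known for holding class II at a low level until interferon-gamma induces Ciita, whereas dendritic cells and B cells carry it constitutively.

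The promoters of the class II genes are shown first because Ciita acts on class II genes through these boxes. Start sites and sequences are those of RefSeq on GRCm38.p6, whose table held windows of 300 bases, 250 before and 50 after the start site, for 7 of the 10 genes. Each window was searched on both strands for the Y box core GATTGG, for an X box written as AAC, any 2 bases, then ATGATG, and for the cAMP response element TGACGTCA. In the windows of these genes no match to the X box motif overlapped a match to the others. The stretches below start 50 bases before the Y box and end 10 bases after it, with the matches in capitals, and were chosen to show an alpha chain, a beta chain, an editor chain and an inhibitor chain. H2-Aa lies on the minus strand and its stretch at chr17:34287857-34287922. The plus-strand stretches lie at chr17:34305757-34305822 for H2-Eb1, chr17:34145108-34145173 for H2-DMb2 and chr17:34238797-34238862 for H2-Ob.
H2-Aa: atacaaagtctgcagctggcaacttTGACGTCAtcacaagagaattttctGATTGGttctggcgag
H2-Eb1: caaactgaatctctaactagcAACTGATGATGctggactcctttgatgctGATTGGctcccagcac
H2-DMb2: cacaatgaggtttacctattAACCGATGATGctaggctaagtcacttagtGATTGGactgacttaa
H2-Ob: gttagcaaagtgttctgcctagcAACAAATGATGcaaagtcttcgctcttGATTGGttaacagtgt

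H2-Eb1, H2-DMb1, H2-DMb2 and H2-Ob held the X and the Y motif on the same strand, separated by 18, 19, 19 and 16 bases. H2-Aa had no match to the X motif as written, and held the cAMP response element 17 bases before its Y box. H2-Oa held the Y motif alone, and H2-DMa held it only in the window of its downstream start site, beginning 199 bases before it. H2-Eb1 held the Y motif a second time, on the minus strand. Of all 32851 windows in the table, 16.1% held the Y motif, 1.79% the cAMP response element, 0.137% the X motif, and 0.0335%, or 11 windows, both X and Y. The stretches of H2-DMb1 and H2-DMb2 matched at 57 of 66 bases (86.4%).

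Of the 10 genes 8 lie in the class II region of chromosome 17 (GENCODE M21, GRCm38), in the order H2-Oa (34092340 to 34095234), H2-DMa (34119541 to 34139101), H2-DMb2 (34143307 to 34151555), H2-DMb1 (34153072 to 34160230), H2-Ob (34238903 to 34254414), H2-Ab1 (34257689 to 34269419), H2-Aa (34282744 to 34287823) and H2-Eb1 (34305867 to 34316674). H2-Aa is read from the minus strand and the others from the plus strand. Ciita stands apart at chromosome 16, 10480059 to 10528418, on the plus strand.

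Some counts are uncertain because transcripts share sequence. H2-DMb1 and H2-DMb2 are near copies, and 22.7% of the 50-base words of the H2-DMb1 transcripts also occur in H2-DMb2. For H2-DMb2, 21.2% of the words occur in H2-DMb1 and 25.9% in any other gene, the highest share of the set. H2-Oa overlaps the minus-strand gene BC051537 over 15.5% of its words, H2-DMa overlaps Brd2 over 8.43% and Ciita overlaps Dexi over 1.46%, and the strand setting of the counting is not stated. H2-Aa shared 0.514% of its words with other genes, and H2-Ab1, H2-Eb1, H2-Ob and Cd74 shared none.

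Levels were compared between genes per kilobase of the longest coding transcript, in CPM per kb. In MHCII+CD11c- control cells the invariant chain Cd74 stood highest at 5785 ± 876 (SD, n = 3), followed by H2-Ab1 at 3214 ± 319, H2-Aa at 1628 ± 177 and H2-Eb1 at 1369 ± 161. The editor chains H2-DMb1 and H2-DMa followed at 40.4 ± 5.21 and 35.8 ± 7.90. H2-DMb2, Ciita, H2-Ob and H2-Oa closed the order at 5.66 ± 3.07, 5.25 ± 1.0, 4.12 ± 0.762 and 2.78 ± 1.82. The ranges of the 3 libraries did not overlap between Cd74 and H2-Ab1, between H2-Ab1 and H2-Aa, between H2-Eb1 and H2-DMb1, or between H2-DMa and H2-DMb2, and they overlapped between every other pair of neighbours in that order.

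The same leading order held in CD11c+MHCII+ control cells, from Cd74 at 13652 ± 946 CPM per kb through H2-Ab1 (8741 ± 731), H2-Aa (3963 ± 399) and H2-Eb1 (3696 ± 330) to H2-DMb1 (104 ± 20.1) and H2-DMa (86.9 ± 10.2). Here H2-DMb2, at 28.1 ± 6.99, lay clear of Ciita at 10.95 ± 0.993, and Ciita clear of H2-Ob at 6.11 ± 1.72. H2-Oa, at 5.06 ± 1.26, overlapped H2-Ob. The I-E alpha gene H2-Ea had 0 counts in all 6 MHCII+CD11c- libraries and at most 2 counts in any CD11c+MHCII+ library, below the floor of 3 counts. C57BL/6 mice are known to carry a deletion that silences this gene, so that the beta chain transcribed from H2-Eb1 has no alpha partner.

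**Figure D1:**
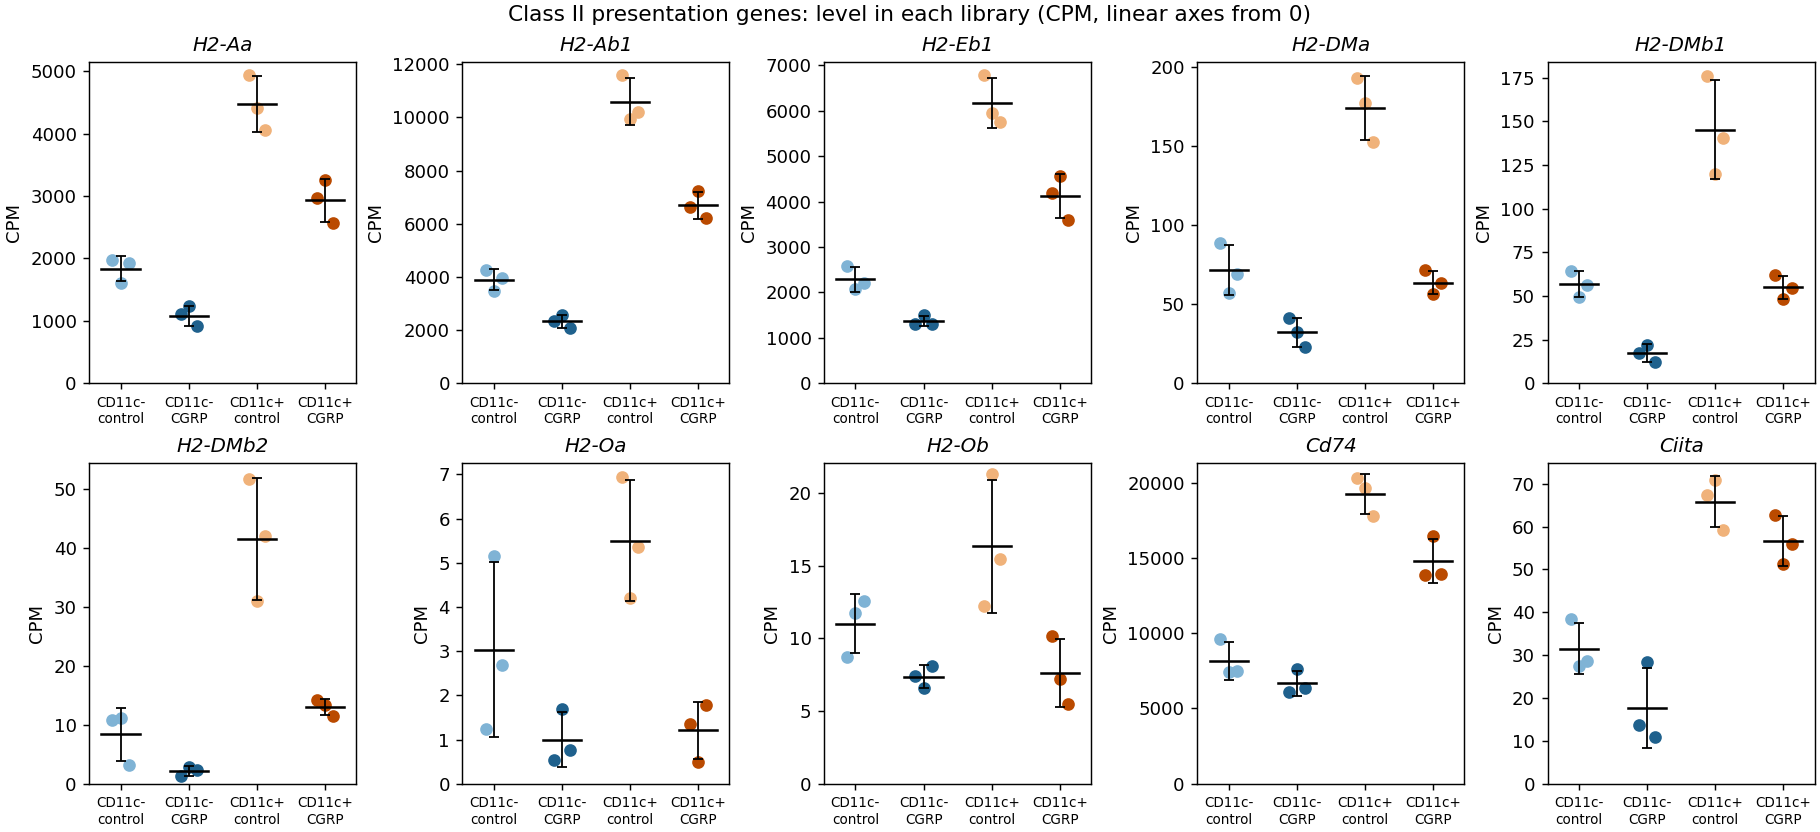
CPM of each of the 10 genes (linear y axes from 0) in the 4 groups on the x axis, with a point per library, a bar at the mean of 3 libraries and whiskers of 1 SD. The CGRP points lie below the control points without overlap in both subsets for H2-Aa, H2-Ab1, H2-Eb1, H2-DMa, H2-DMb1, H2-DMb2 and H2-Ob. In CD11c+MHCII+ cells alone this also holds for H2-Oa and Cd74. The CD11c+MHCII+ points lie above the MHCII+CD11c- points of the same treatment for 8 genes, H2-Oa and H2-Ob being the exceptions.

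The effect of CGRP on class II presentation genes was compared in each subset. In MHCII+CD11c- cells 6 of the 10 genes fell and none rose (edgeR quasi-likelihood test, Benjamini-Hochberg adjusted p under 0.05), against 3.89% of all tested genes called lower. In CD11c+MHCII+ cells 7 of 10 fell and none rose, against 4.59% of all tested genes called lower. Both subsets were sorted from stimulated explants, and their libraries may share explants. The results of the 2 subsets may therefore not be independent. The median log2 change of the 10 genes was -0.80 and -0.88 in the 2 subsets, where the median of all tested genes was -0.023 and 0.0016. The libraries of CGRP and control did not overlap for 7 of the 10 genes in MHCII+CD11c- cells and for 9 in CD11c+MHCII+ cells, each in the lower direction, and the same was true of 12% and 13.8% of all tested genes.

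**Figure D2:**
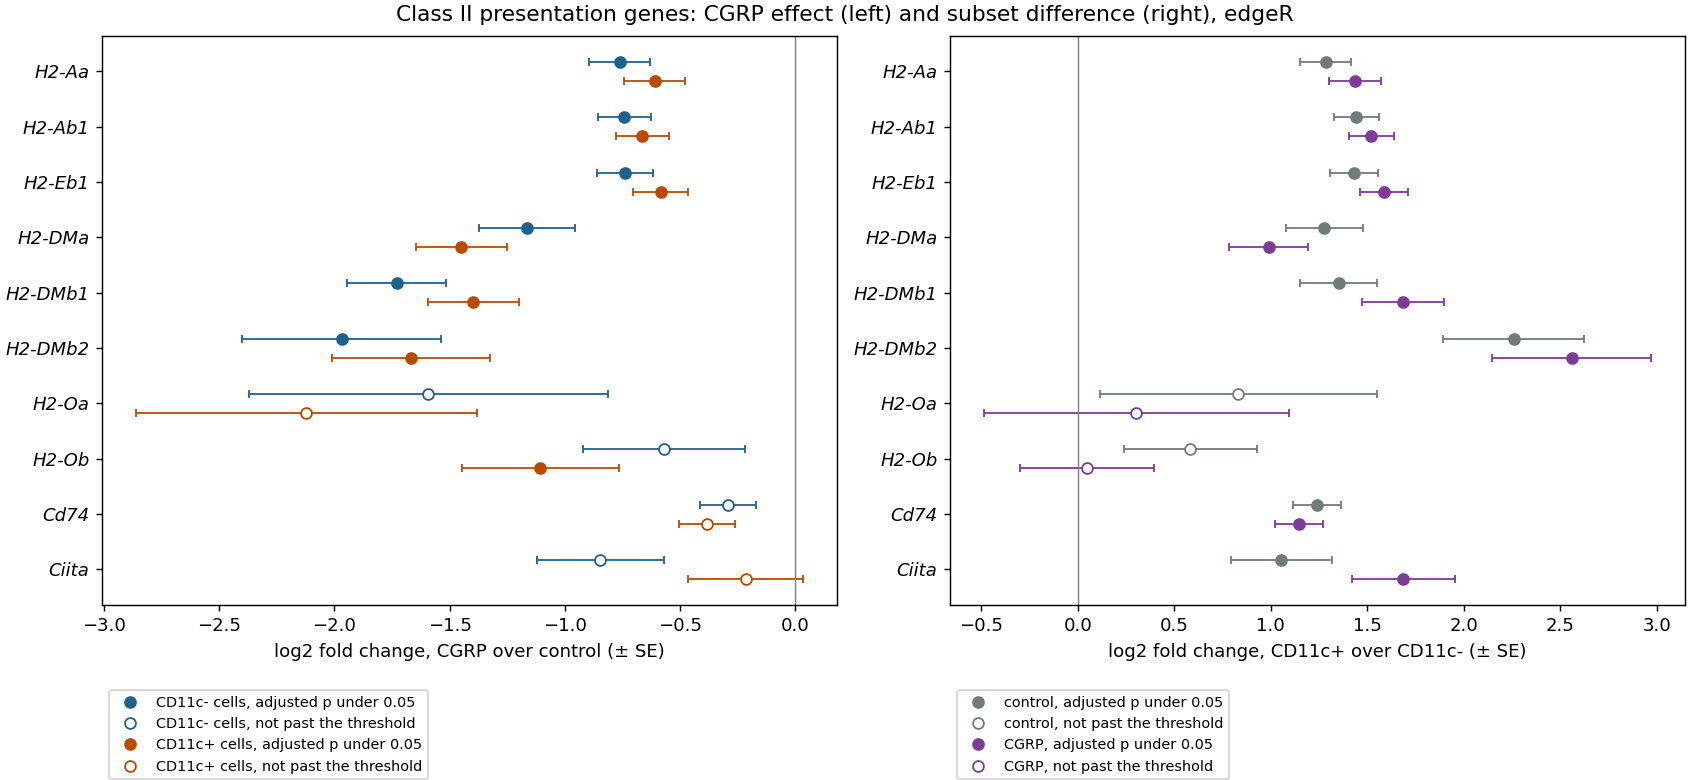
Log2 fold changes with SE whiskers (x axes) for the 10 genes (y axes), on the left CGRP over control in each subset and on the right CD11c+MHCII+ over MHCII+CD11c- cells in control and in CGRP libraries, with filled points past an adjusted p of 0.05. All 20 points on the left lie below 0 and the editor chains lie further below it than the class II chains, and all 20 points on the right lie above 0.

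The chains of the class II molecule moved together. H2-Aa, the I-A alpha chain, read 1971, 1607 and 1930 CPM in the MHCII+CD11c- control libraries and 1103, 1234 and 913 with CGRP. CD11c+MHCII+ cells held 4947, 4412 and 4053 CPM of it and then 2976, 3252 and 2562 with CGRP. Every CGRP library lay below every control library of its subset, with a log2 change of -0.76 ± 0.13 (SE, adjusted p = 8.78e-04), 1.70-fold lower, and of -0.61 ± 0.13 (adjusted p = 0.0042), 1.53-fold lower.

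H2-Ab1, its beta chain partner, read 4248, 3482 and 3957 CPM in MHCII+CD11c- control libraries and 2341, 2571 and 2085 with CGRP. The CD11c+MHCII+ libraries held 11606, 9957 and 10219 CPM without and 6625, 7231 and 6222 CPM with CGRP. The groups again did not overlap, at -0.74 ± 0.11 (adjusted p = 3.16e-04) and -0.66 ± 0.11 (adjusted p = 5.74e-04) on the log2 scale.

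H2-Eb1, the I-E beta chain, went from 2588, 2070 and 2198 CPM to 1305, 1495 and 1307 CPM in MHCII+CD11c- cells. It went from 6796, 5946 and 5762 CPM to 4180, 4564 and 3603 CPM in CD11c+MHCII+ cells. Its log2 changes were -0.74 ± 0.12 and -0.58 ± 0.12 (adjusted p = 5.15e-04 and 0.00289). Across the 3 chains the fall lay between 1.5-fold and 1.70-fold in both subsets.

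The chains of the peptide editor H2-DM had larger estimated falls. H2-DMa, the alpha chain, read 88.7, 57.3 and 69.4 CPM in MHCII+CD11c- control libraries and 41.6, 32.3 and 23.0 with CGRP, 2.24-fold lower. CD11c+MHCII+ libraries gave 193, 177 and 153 CPM and then 71.3, 56.4 and 63.2, 2.73-fold lower. The log2 changes were -1.16 ± 0.21 (adjusted p = 0.00101) and -1.45 ± 0.20 (adjusted p = 4.99e-05).

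H2-DMb1, the main beta chain, was at 64.2, 49.6 and 56.4 CPM in MHCII+CD11c- control libraries and at 17.5, 22.1 and 12.1 CPM with CGRP, 3.32-fold lower. CD11c+MHCII+ libraries held 176, 120 and 140 CPM and, with CGRP, 61.8, 48.5 and 54.6 CPM, 2.63-fold lower. Its log2 changes were -1.73 ± 0.22 (adjusted p = 3.31e-05) and -1.40 ± 0.20 (adjusted p = 6.95e-05), with no overlap in either subset.

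H2-DMb2, the second beta chain gene, had few reads in MHCII+CD11c- cells, 35, 39 and 7 counts in control and 5, 12 and 12 counts in CGRP libraries. These corresponded to 10.9, 11.2 and 3.13 CPM and to 1.32, 2.92 and 2.26 CPM, which did not overlap but came close at control replicate 3. Its level in CD11c+MHCII+ cells was 51.8, 31.1 and 42.1 CPM and then 14.2, 13.4 and 11.6 CPM. The gene fell in both subsets, at -1.97 ± 0.43 (adjusted p = 0.00554) and -1.67 ± 0.34 (adjusted p = 0.00267), although limma-voom with quality weights gave an adjusted p of 0.133 in MHCII+CD11c- cells, the highest of its alternatives, of which the lowest was 1.93e-04.

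The inhibitor chains H2-Oa and H2-Ob were, per kilobase, the lowest of the set in 3 groups, and in MHCII+CD11c- CGRP libraries H2-DMb2 lay below H2-Ob. H2-Oa, the alpha chain, had 4, 18 and 6 counts in MHCII+CD11c- control libraries and 2, 7 and 4 with CGRP, an overlap. The CD11c+MHCII+ libraries held 17, 18 and 25 counts in control and 7, 2 and 10 in CGRP libraries, or 6.94, 4.21 and 5.36 CPM against 1.34, 0.495 and 1.78 CPM. Neither difference passed the threshold, at -1.59 ± 0.78 (adjusted p = 0.244) and -2.12 ± 0.74 (adjusted p = 0.0756). The second of these passed it in 3 of 9 other fits, one being DESeq2 at an adjusted p of 0.0317, and in none of 12 fits that each left out a library, where the adjusted p reached 0.253. At this depth H2-Oa leaves a wide error.

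H2-Ob, the beta chain, read 8.69, 11.8 and 12.5 CPM in MHCII+CD11c- control libraries and 7.41, 6.56 and 8.11 with CGRP, without overlap but short of the threshold (-0.57 ± 0.35, adjusted p = 0.378). CD11c+MHCII+ libraries read 12.2, 21.3 and 15.4 CPM and then 10.2, 7.18 and 5.52 with CGRP, a fall of 2.15-fold (-1.11 ± 0.34, adjusted p = 0.0426). That call was kept in 7 of 10 other fits and in 5 of 12 fits that each left out a library, its adjusted p ranging from 0.0124 to 0.186.

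H2-O is best known from B cells and dendritic cells, and transcripts of those cells were present. The summed level of 10 B cell markers was 102 to 170 CPM in MHCII+CD11c- control and 48.2 to 75.8 CPM in MHCII+CD11c- CGRP libraries, and 16.5 to 26.9 and 7.83 to 17.6 CPM in the CD11c+MHCII+ groups, with no marker at 0 throughout a group. None of the 9 that were tested was called in MHCII+CD11c- cells (median log2 change -0.90) and 1 was called lower in CD11c+MHCII+ cells (median -1.55). Among all tested genes 3.89% and 4.59% were called lower in the 2 subsets. The summed level of 9 dendritic cell markers was 124 to 182 and 98.7 to 127 CPM in MHCII+CD11c- control and CGRP libraries, and 627 to 676 and 669 to 779 CPM in CD11c+MHCII+ cells. Of the 7 tested, 1 was called lower in MHCII+CD11c- cells, Flt3 (-2.20 ± 0.60, adjusted p = 0.0241). In CD11c+MHCII+ cells the sum covered opposite changes. Ccr7, of migrating dendritic cells, rose there from 240 ± 33.4 to 576 ± 53.9 CPM (SD, n = 3), while Cd209a fell from 297 ± 7.06 to 79.3 ± 9.84 CPM and Flt3 from 18.6 ± 1.96 to 4.46 ± 2.91 CPM (adjusted p = 5.32e-05, 2.26e-06 and 0.0169). Zbtb46, Xcr1 and Batf3 had estimates of -0.37, -0.96 and -0.68 on the log2 scale and Siglech of 0.75, none of them called. Itgae was at 0 in the CD11c+MHCII+ control libraries. The part of these cells in the falls of the class II genes was not tested.

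The fibroblast transcripts that were called with CGRP changed in opposite directions in the subsets. The summed level of 6 fibroblast markers, in rising order, was 89.3, 239 and 1095 CPM in MHCII+CD11c- control and 35.2, 68.3 and 110 CPM in CGRP libraries. These overlapped, and the highest control library stood far above the others. Of the tested markers 2 of 4 were called lower, against 3.89% of all tested genes. In CD11c+MHCII+ cells the sum ran from 18.4 to 24.6 and from 46.3 to 245 CPM, with 2 of 4 called higher, against 6.29% of all tested genes. The 4 endothelial markers summed to 10.3 to 15.2 CPM in MHCII+CD11c- control and 20.0 to 34 CPM in CGRP libraries, without overlap, and to 11.6 to 118 and 11.1 to 86.8 CPM in CD11c+MHCII+ cells, with none of the 3 tested called in either subset. The T cell markers, of which the count files held 3 of the 5 listed, summed to at most 1.29 CPM in any library. The 5 lining macrophage markers summed to 560 to 743 and 531 to 686 CPM in MHCII+CD11c- control and CGRP libraries. In CD11c+MHCII+ cells they summed to 236 to 317 and 222 to 397 CPM. The 4 neutrophil markers summed to 49.7 to 157 and 73.8 to 145 CPM in MHCII+CD11c- cells, and to 18.8 to 153 and 15.5 to 84.2 CPM in CD11c+MHCII+ cells. Itgax, the gene of the sorting marker CD11c, fell in CD11c+MHCII+ cells to 107 to 121 CPM (-1.03 ± 0.30, adjusted p = 0.0288). The part of these changes in the class II levels was not tested.

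Cd74, the invariant chain, lies on chromosome 18 at 60803848 to 60812652 on the plus strand, and was the most abundant gene of the set. It read 9583, 7414 and 7472 CPM in MHCII+CD11c- control libraries and 6060, 7602 and 6345 with CGRP, where CGRP replicate 2 exceeded 2 of the control libraries. The CD11c+MHCII+ libraries read 20326, 19664 and 17757 CPM and then 13884, 16464 and 13952, without overlap. The log2 changes were -0.29 ± 0.12 (adjusted p = 0.164) and -0.38 ± 0.12 (adjusted p = 0.0511), and neither passed the threshold. The second passed it in 9 of 10 other fits and in 6 of 12 fits that each left out a library, with adjusted p-values from 0.00487 to 0.165.

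Ciita, the transactivator, read 38.5, 27.5 and 28.6 CPM in MHCII+CD11c- control libraries, from 124, 96 and 64 counts. With CGRP it read 13.8, 28.4 and 10.9 CPM, so that replicates 1 and 3 lay well below every control library and replicate 2 lay among them. The log2 change of -0.84 ± 0.27 did not pass the threshold (adjusted p = 0.0612). It was -1.36 without MHCII+CD11c- CGRP replicate 2 (adjusted p = 0.00192), and 6 of 10 other fits called it, among them DESeq2 (adjusted p = 0.0241). Over the fits that each left out a library the adjusted p reached 0.269, and 1 of 12 called it.

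In CD11c+MHCII+ cells Ciita read 67.3, 70.8 and 59.2 CPM in control and 62.7, 51.2 and 56.0 CPM in CGRP libraries, which overlapped. The log2 change was -0.21 ± 0.25 (adjusted p = 0.697), and no other fit called it. The difference between the subsets in the Ciita response was 0.63 ± 0.37 (adjusted p = 0.692), so the data do not separate the 2 responses. No gene of the set was called for such a difference by edgeR, none had an unadjusted p under 0.05, and none was called in any other fit, while 0.151% of all tested genes were called for it.

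The balance of the genes within each library was described as the log2 ratio of counts, which needs no scaling between libraries. Cd74 relative to H2-Ab1 was 1.06 ± 0.13 (SD, n = 3) in MHCII+CD11c- control and 1.51 ± 0.12 in CGRP libraries, and 0.86 ± 0.10 and 1.14 ± 0.06 in CD11c+MHCII+ cells. It was higher with CGRP without overlap in both subsets, by 0.45 ± 0.10 (SE) and 0.28 ± 0.07. The invariant chain supplied 49.8 ± 2.06% (SD) of the counts of the 10 genes in MHCII+CD11c- control and 57.8 ± 1.91% in CGRP libraries, and 47.1 ± 1.42% and 51.4 ± 1.47% in CD11c+MHCII+ cells.

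H2-DMa relative to H2-Ab1 went from -5.78 ± 0.18 to -6.21 ± 0.35 in MHCII+CD11c- cells, with overlap, and from -5.93 ± 0.13 to -6.72 ± 0.25 in CD11c+MHCII+ cells, without overlap. H2-Ob relative to H2-DMb1, an inhibitor chain against an editor chain, went from -2.36 ± 0.44 to -1.18 ± 0.58 in MHCII+CD11c- cells without overlap, and from -3.16 ± 0.67 to -2.87 ± 0.37 in CD11c+MHCII+ cells with overlap. H2-Oa relative to H2-DMa overlapped in both subsets, at -4.67 ± 1.28 and -4.97 ± 0.93 in MHCII+CD11c- cells and at -4.97 ± 0.34 and -5.74 ± 0.72 in CD11c+MHCII+ cells. Ciita relative to H2-Ab1 overlapped as well, at -6.95 ± 0.16 and -7.15 ± 0.58 in MHCII+CD11c- cells and at -7.33 ± 0.17 and -6.88 ± 0.22 in CD11c+MHCII+ cells. These ratios carry no test.

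**Figure D3:**
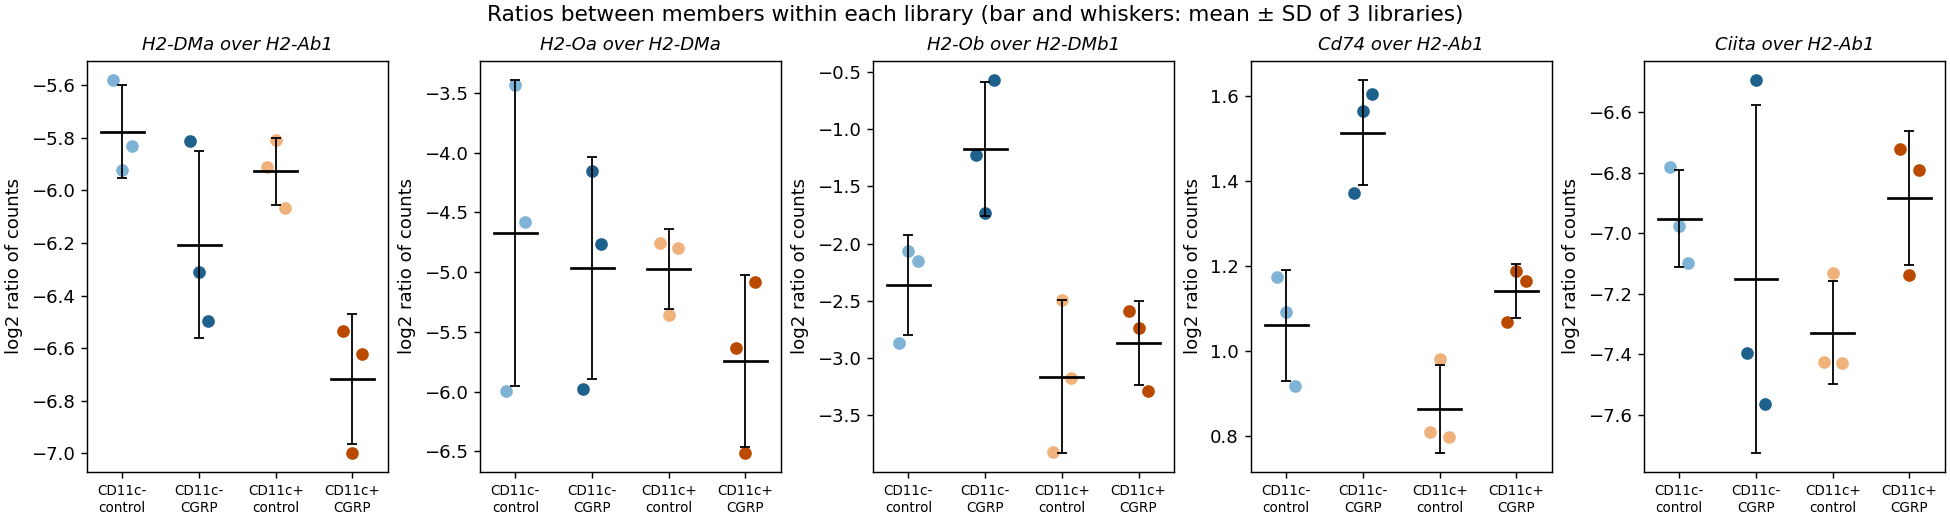
Log2 ratio of counts between pairs of the genes (y axes, not starting at 0) in each library of the 4 groups (x axes), with bars at the mean and whiskers of 1 SD over 3 libraries. Cd74 over H2-Ab1 is higher with CGRP in both subsets without overlap, H2-DMa over H2-Ab1 is lower without overlap in CD11c+MHCII+ cells, and the ratios of H2-Oa and Ciita overlap between treatments.

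Together the 10 genes took 1.70 ± 0.17% (SD, n = 3) of all counts in MHCII+CD11c- control libraries and 1.09 ± 0.08% with CGRP. Among CD11c+MHCII+ cells they took 4.20 ± 0.21% and 2.77 ± 0.16%. The lowest control library held 1.55% against a highest CGRP library of 1.19% in the CD11c- subset, and 3.99% against 2.96% in the CD11c+ subset. Reads of amplified libraries were counted, and no source used here states a correction by molecular identifiers, so counting error alone does not describe the precision of such shares.

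The subsets differed in the level of the set. In control libraries 8 of the 10 genes were higher in CD11c+MHCII+ than in MHCII+CD11c- cells and none was lower, with a median log2 difference of 1.28, against 10.2% of all tested genes called higher. With CGRP the same 8 genes were called higher, with a median of 1.48, against 8.36% of all tested genes. The libraries of the 2 subsets did not overlap for 8 genes in either treatment, compared with 16.7% and 17.8% of all tested genes. These comparisons share libraries with the CGRP contrasts.

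H2-DMb2 had the highest estimate, at 2.26 ± 0.36 (SE) in control (adjusted p = 1.60e-04) and 2.56 ± 0.41 with CGRP (adjusted p = 1.64e-04), 4.78-fold and 5.89-fold higher in CD11c+MHCII+ cells. The class II chains H2-Aa, H2-Ab1 and H2-Eb1 were 2.43-fold, 2.72-fold and 2.70-fold higher in control and 2.71-fold, 2.87-fold and 3.01-fold higher with CGRP. Cd74 was 2.36-fold and 2.21-fold higher, H2-DMa 2.42-fold and 1.99-fold higher, and H2-DMb1 2.55-fold and 3.22-fold higher. Ciita was 2.08-fold higher in control (1.06 ± 0.26, adjusted p = 0.00648) and 3.22-fold higher with CGRP (1.69 ± 0.27, adjusted p = 1.33e-04).

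The inhibitor chains were not called between the subsets. H2-Oa differed by 0.83 ± 0.72 in control and 0.30 ± 0.79 with CGRP, and H2-Ob by 0.58 ± 0.34 and 0.05 ± 0.35, on the log2 scale (adjusted p from 0.26 to 0.958). The B cell markers ran the other way from the class II genes, with 7 of 9 called lower in CD11c+MHCII+ cells in control libraries and 8 of 9 with CGRP, against 10.9% and 8.51% of all tested genes called lower. The 8 macrophage identity genes were also lower there, 8 of 8 in control and 7 of 8 in CGRP libraries, and 3 of 7 dendritic cell markers were higher and 1 lower in either treatment. The part of these differences in cell makeup in the class II levels was not tested.

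Genes of class I presentation, 4 in number, lie inside the class II region, between H2-DMb1 and H2-Ob. Tap1 and Tap2 form the transporter that carries cytosolic peptides into the endoplasmic reticulum, and Psmb8 and Psmb9 are subunits of the immunoproteasome that cuts them. With CGRP 3 of these 4 rose and none fell in each subset, with a median log2 change of 1.21 in MHCII+CD11c- and 0.96 in CD11c+MHCII+ cells, against 5.32% and 6.29% of all tested genes called higher.

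Tap1 (chromosome 17, 34187553 to 34197225) read 47.0, 51.2 and 67.1 CPM, in rising order, in MHCII+CD11c- control libraries and 157, 197 and 214 with CGRP. The CD11c+MHCII+ libraries gave 73.4, 75.8 and 96.5 CPM and then 182, 267 and 327. It rose by 1.79 ± 0.21 and 1.65 ± 0.20 on the log2 scale (adjusted p = 1.54e-05 and 1.48e-05), with every CGRP library above every control library. Psmb8 rose by 1.36 ± 0.21 and 0.65 ± 0.20 (adjusted p = 3.16e-04 and 0.0416) and Psmb9 by 1.06 ± 0.31 and 1.27 ± 0.29 (adjusted p = 0.0338 and 0.00609). Tap2 was not called, at 0.57 ± 0.22 and 0.34 ± 0.20 (adjusted p = 0.113 and 0.367). Of the 12 genes examined in this stretch of chromosome 17, the called class II genes were thus lower with CGRP and the called class I genes, which lie between them, higher.

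**Figure D4:**
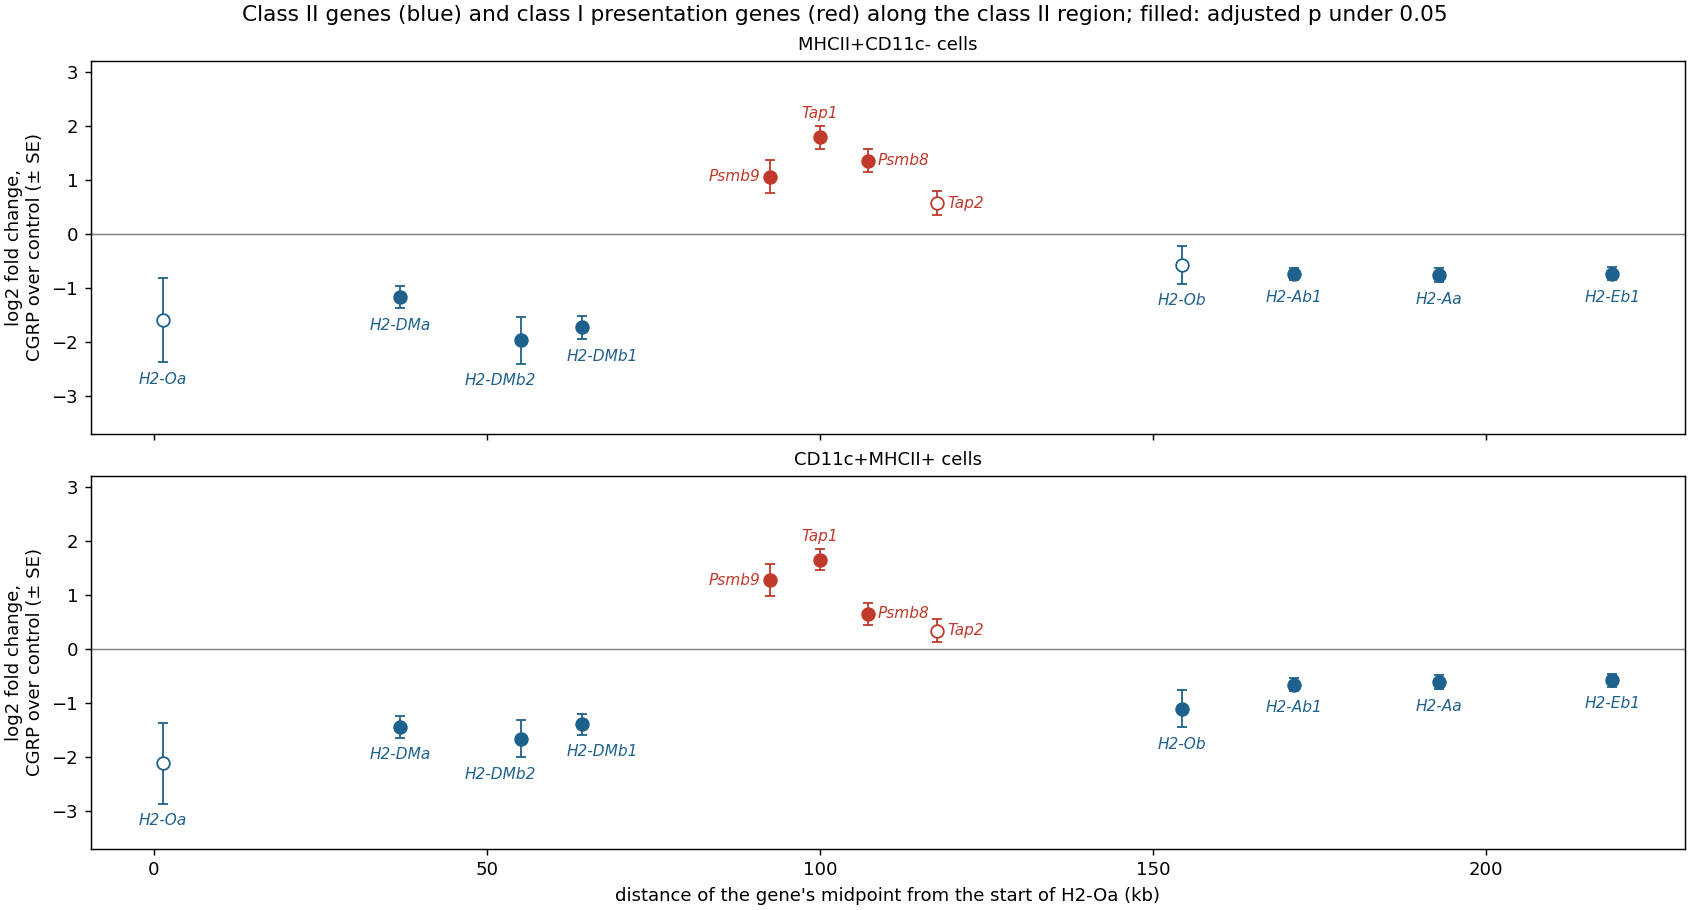
Log2 fold change of CGRP over control with SE whiskers (y axes) against the distance of each gene's midpoint from the start of H2-Oa in kb (x axis), for class II genes in blue and class I presentation genes in red, in MHCII+CD11c- cells (upper panel) and CD11c+MHCII+ cells (lower panel), filled where the adjusted p was under 0.05. The 4 red points lie above 0 and the 8 blue points on both sides of them lie below 0 in both panels.

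Genes that act on Ciita were read from lists. Ciita is transcribed from separate promoters in different cells, and Spi1 (PU.1), Irf8 and Irf4 are myeloid and lymphoid factors that act there, while Prdm1 (Blimp-1) silences Ciita in plasma cells. Of these 4, 2 fell and none rose in each subset, against 3.89% and 4.59% of all tested genes called lower. Irf4 fell in both, from 134 ± 12 to 76.8 ± 10.8 CPM (SD, n = 3) in MHCII+CD11c- cells (-0.81 ± 0.16 on the log2 scale, adjusted p = 0.002) and from 283 ± 25.6 to 130 ± 23.2 CPM in CD11c+MHCII+ cells (-1.12 ± 0.15, adjusted p = 4.92e-05). Irf8 fell in MHCII+CD11c- cells, from 120 ± 6.10 to 69.4 ± 7.37 CPM (-0.79 ± 0.18, adjusted p = 0.00697), and was -0.56 ± 0.19 in CD11c+MHCII+ cells (adjusted p = 0.073). Prdm1 was called lower in CD11c+MHCII+ cells alone (-0.86 ± 0.18, adjusted p = 0.00327), and the difference from its -0.23 ± 0.19 in MHCII+CD11c- cells was not called (adjusted p = 0.486). Spi1 stood at -0.27 ± 0.12 and -0.28 ± 0.12 (adjusted p = 0.209 and 0.186).

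Interferon-gamma is the classical inducer of Ciita, through its receptor and the kinases Jak1 and Jak2. Of 7 genes on this route 2 rose and 1 fell in MHCII+CD11c- cells, and 3 rose and 2 fell in CD11c+MHCII+ cells. Among all tested genes 5.32% and 6.29% were called higher in the 2 subsets, and 3.89% and 4.59% lower. Socs1, which restrains the kinases, rose by 1.4 ± 0.30 and 1.16 ± 0.29 (adjusted p = 0.00484 and 0.0129), and Irf2 by 0.50 ± 0.15 and 0.82 ± 0.15 (adjusted p = 0.0411 and 0.00101).

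Jak1 ran the other way and fell in both subsets, from 748 ± 134 to 459 ± 9.34 CPM and from 661 ± 63.7 to 366 ± 7.85 CPM (adjusted p = 0.00118 and 1.50e-04). Ifngr1, a receptor chain, was called lower in CD11c+MHCII+ cells at -0.50 ± 0.15 (adjusted p = 0.0414) and stood at -0.33 ± 0.16 in MHCII+CD11c- cells (adjusted p = 0.228). Irf1, an interferon-induced factor that acts on the Ciita promoter, rose in CD11c+MHCII+ cells from 76.4 ± 14.1 to 123 ± 23.1 CPM (0.68 ± 0.18, adjusted p = 0.0161) and was -0.37 ± 0.18 in MHCII+CD11c- cells (adjusted p = 0.219). The difference between the subsets for Irf1 was 1.05 ± 0.25, with an unadjusted p of 4.64e-04 that did not pass after adjustment (0.12).

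The factors that bind the X and Y boxes were mostly not called. Of 9 genes, among them Rfx5, Rfxap and Rfxank of the X box complex and Nfya, Nfyb and Nfyc of the Y box complex, none was called in MHCII+CD11c- cells. In CD11c+MHCII+ cells 1 was called, the coactivator Ep300, from 161 ± 37.0 to 236 ± 37.9 CPM (0.54 ± 0.16, adjusted p = 0.0324). There 6.29% of all tested genes were called higher. Rfxank was weakly expressed, with group means of 2.00 to 5.50 CPM. Its estimate in MHCII+CD11c- cells, 1.27 ± 0.63 on the log2 scale (adjusted p = 0.252), shows how wide the errors were at this depth. Rfx5 averaged 2.94 and 4.46 CPM in MHCII+CD11c- control and CGRP libraries, and 12.3 and 13.1 CPM in CD11c+MHCII+ ones. Between the subsets Rfx5 was called higher in CD11c+MHCII+ cells, 3.93-fold in control (adjusted p = 0.0142) and 2.92-fold with CGRP (adjusted p = 0.0423). Of the 9 genes, 2 were called higher there in control and 1 with CGRP, and none lower, against 10.2% and 8.36% of all tested genes called higher.

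**Figure D5:**
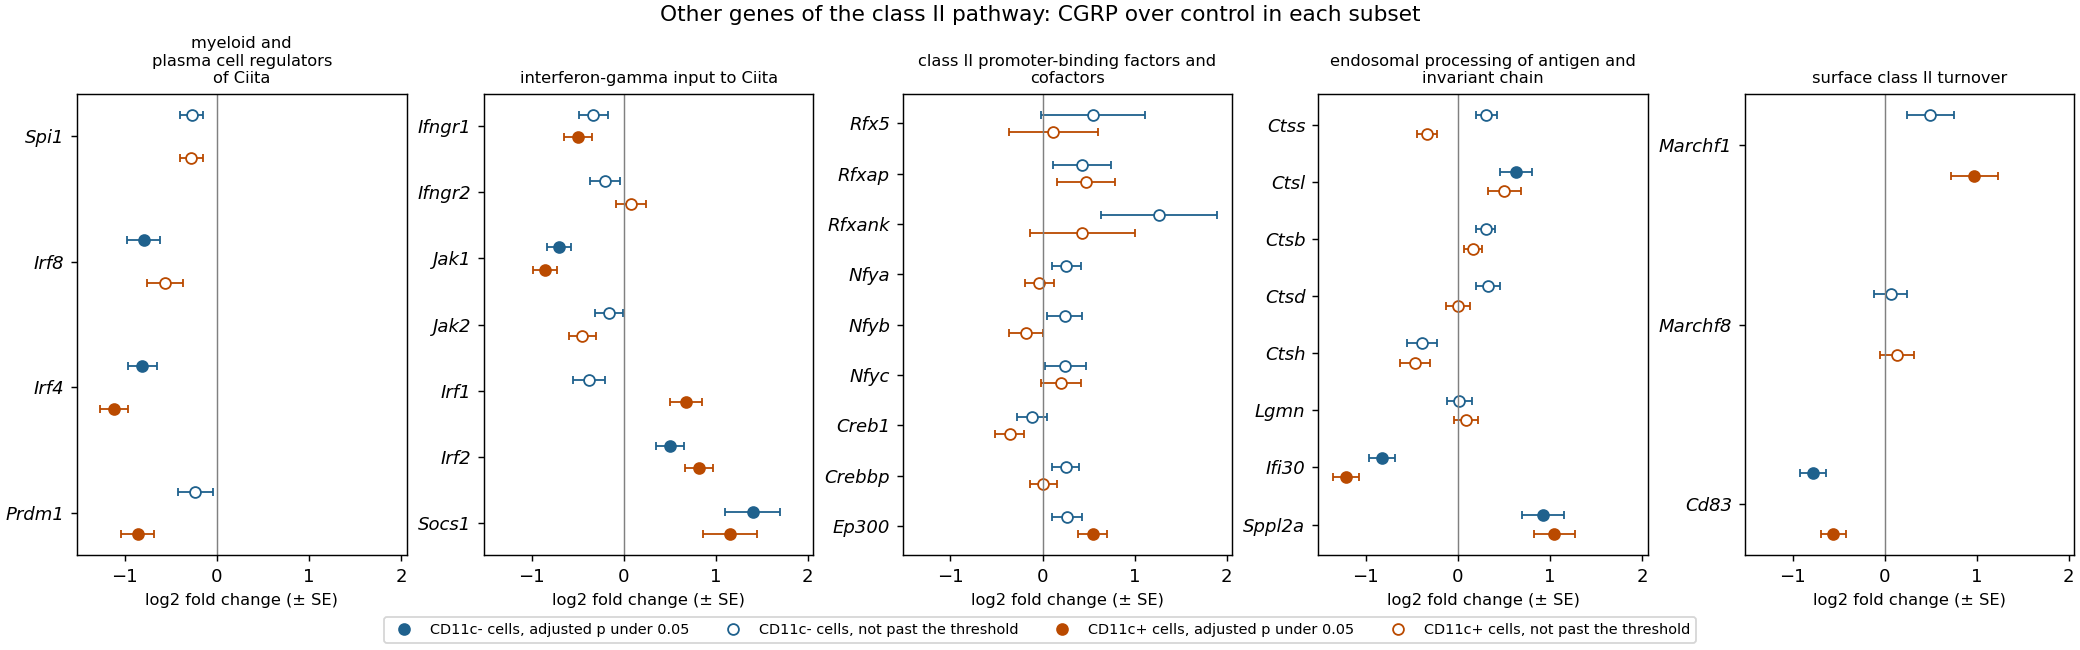
Log2 fold change of CGRP over control with SE whiskers (x axes) for genes of 5 lists around class II presentation (y axes), in MHCII+CD11c- cells in blue and CD11c+MHCII+ cells in orange, filled where the adjusted p was under 0.05. Socs1 and Irf2 lie above 0 and Jak1, Irf4, Ifi30 and Cd83 below 0 in both subsets, and among the promoter-binding factors only Ep300 in CD11c+MHCII+ cells is filled.

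Endosomal proteins that prepare peptides and trim the invariant chain did not move one way. Of 8 genes 2 rose and 1 fell in MHCII+CD11c- cells, and 1 rose and 1 fell in CD11c+MHCII+ cells. The shares of all tested genes were 5.32% and 6.29% called higher in the 2 subsets, and 3.89% and 4.59% lower. Ifi30, the thiol reductase that opens disulphide bonds of antigens, fell from 193 ± 15.5 to 109 ± 13.4 CPM (-0.83 ± 0.14, adjusted p = 8.75e-04) and from 388 ± 10.9 to 167 ± 30.1 CPM (-1.21 ± 0.14, adjusted p = 1.16e-05). Sppl2a, the protease that removes the last membrane stub of the invariant chain, rose by 0.92 ± 0.23 and 1.05 ± 0.22 (adjusted p = 0.0129 and 0.0032). Ctsl, a cathepsin that cuts the invariant chain, rose in MHCII+CD11c- cells from 515 ± 23.2 to 795 ± 42.9 CPM (adjusted p = 0.0266) and was 0.50 ± 0.18 in CD11c+MHCII+ cells (adjusted p = 0.0751). Ctss, the cathepsin best known for that step in dendritic cells, was 0.31 ± 0.11 and -0.34 ± 0.11 (adjusted p = 0.092 and 0.0571).

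Turnover of surface class II is governed by ubiquitin ligases and by Cd83. Cd83, which shields class II from the ligase Marchf1, fell from 704 ± 172 to 410 ± 10.9 CPM in MHCII+CD11c- cells (-0.78 ± 0.14, adjusted p = 0.00108) and from 1013 ± 45.7 to 689 ± 43.7 CPM in CD11c+MHCII+ cells (-0.56 ± 0.14, adjusted p = 0.0121). Marchf1 rose in CD11c+MHCII+ cells, from 13.8 ± 4.15 to 26.6 ± 2.62 CPM (0.98 ± 0.26, adjusted p = 0.0184), and stood at 0.49 ± 0.26 in MHCII+CD11c- cells (adjusted p = 0.274). Marchf8 was 0.06 ± 0.18 and 0.13 ± 0.19 (adjusted p = 0.888 and 0.755).

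Over all 12 libraries the genes outside the set whose pattern was most like that of H2-Aa, H2-Ab1 and H2-Eb1 together were Gpr132 (Pearson's r of log2(CPM + 1) 0.993), Gm2a (0.986), Madd (0.985), Lsp1 (0.981), Wnt11 (0.979) and Hr (0.979), among 8433 genes compared. Within the set the highest likeness to the 3 chains was that of Cd74 (0.975), H2-DMb2 (0.938), Ciita (0.935) and H2-DMb1 (0.926), followed by H2-DMa (0.890), H2-Oa (0.556) and H2-Ob (0.534). For Ciita the most alike were Dapp1 (0.964), Alpk2 (0.963), Nfkb2 (0.949), Gpr132 (0.947), Stap1 (0.944) and Cyria (0.943). The 12 libraries fall into the 4 groups, so the points share groups, libraries and depth, and the coefficients carry no test.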

How the data were processed

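The authors sorted cells from digested synovium, made stranded total RNA libraries with a low-input kit, trimmed reads with Trim Galore, checked them with FastQC, aligned them to mm10 with HISAT2 and counted them with featureCounts. Their versions, the annotation and the strand setting are not given in the sources used here. The authors deposited these as unnormalized whole-number counts of reads for each gene. The 12 columns of the combined count table that name these libraries equal the library files, and 6 further columns were not used.

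Counts of all 12 libraries were fitted together with edgeR (version 4.0.16, R 4.3.3) by the quasi-likelihood test on 4 group means, with TMM scaling and a filter by group (minimum count 10, minimum total count 15) that left 11927 genes. The common biological coefficient of variation was 0.256. P-values were adjusted by Benjamini-Hochberg over all tested genes, and a gene was called under 0.05. CPM used the TMM-scaled library totals. Fits with DESeq2 (1.42.0), limma-voom (3.58.1) and sva (3.50.0), other scalings and filters, and fits leaving out each library were alternatives. The test was checked on simulated counts with known changes. At a log2 change of 1 it called 50% of changed genes in MHCII+CD11c- and 61% in CD11c+MHCII+ cells. At a log2 change of 2 it called 88% and 96%. Of all genes called, 3.5% and 4.85% were unchanged ones. The simulated counts were drawn independently for each library with the dispersions of the same fit, so they share its assumptions. The changed genes were taken from those above a minimum mean level, and the shares do not cover genes as low as H2-Oa.

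Same-numbered libraries were checked for pairing by the correlation of deviations from group means, over the 7618 genes that reached 10 counts in all libraries. Only the CGRP libraries of the 2 subsets passed 0.1 in every pair (0.236, 0.13 and 0.142). Counts are of amplified reads, with no correction by molecular identifiers stated in the sources used here, and the floor of 3 counts covers counting error only.

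The genes named are the 10 members, the fixed lists around them (1 gene of the interferon-gamma list is not reported here), and the 6 genes most like the class II chains or Ciita in pattern. The members and lists were chosen with earlier results of these data known.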

Additional observations from a re-analysis of the deposited data

How the results depend on the processing

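The falls of H2-Aa, H2-Ab1, H2-Eb1, H2-DMa and H2-DMb1 rest on at least 64 counts in every library, whereas H2-DMb2, H2-Oa and H2-Ob had as few as 5, 2 and 27 counts, and depth limits their errors. With a minimum log2 change of 1, 3 genes were called lower in MHCII+CD11c- and 4 in CD11c+MHCII+ cells. The other fits, without that minimum, called 5 to 7 and 6 to 9 genes lower. DESeq2 gave 7 and 9, limma-voom 5 and 9, and a robust dispersion estimate, chosen after seeing the data, 7 and 8. Of the 11927 tested genes these called 1338 and 1536, 942 and 1545, and 1114 and 1293 in either direction. The main fit called 1099 and 1298. With at least 10 counts in every library H2-Oa and H2-DMb2 dropped out and the median log2 change in CD11c+MHCII+ cells was -0.65.

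Leaving out each library moved the median from -1.01 (without MHCII+CD11c- CGRP replicate 2) to -0.68 in MHCII+CD11c- cells, with 6 to 7 called lower, and from -1.05 (without CD11c+MHCII+ CGRP replicate 1) to -0.79 in CD11c+MHCII+ cells, with 6 to 8 called lower. The subset medians ranged from 1.21 to 1.42 in control and from 1.37 to 1.57 with CGRP, with 8 genes called higher each time, and the interaction median from 0.016 to 0.18. The share of counts ranged from 1.60 to 1.77%, 1.04 to 1.12%, 4.09 to 4.30% and 2.68 to 2.84% in MHCII+CD11c- control, MHCII+CD11c- CGRP, CD11c+MHCII+ control and CD11c+MHCII+ CGRP libraries, and was 1.90, 1.24, 4.57 and 3.06% of totals without mitochondrial genes.

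Some uncalled differences changed sign. Between the subsets with CGRP, H2-Ob was -0.0046 by limma-voom, -0.027 without MHCII+CD11c- CGRP replicate 2 and -0.22 without CD11c+MHCII+ CGRP replicate 1, and H2-Oa was -0.044 with 1 surrogate variable and -0.064 without CD11c+MHCII+ CGRP replicate 3. In the interaction H2-Ab1 was -0.021 without CD11c+MHCII+ control replicate 2 and -0.0036 without MHCII+CD11c- CGRP replicate 3, and H2-Oa was 0.047 and Cd74 0.0066 without MHCII+CD11c- CGRP replicate 2. Over all such fits the ranges were -0.22 to 0.25 for H2-Ob and -0.064 to 0.89 for H2-Oa between the subsets, and -0.021 to 0.15 for H2-Ab1, -1.23 to 0.047 for H2-Oa and -0.23 to 0.0066 for Cd74 in the interaction. The causes were not tested.

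Control and CGRP libraries share only a replicate number, with correlations of 0.052, -0.038 and 0.0085 in MHCII+CD11c- and 0.09, 0.11 and 0.0069 in CD11c+MHCII+ cells. With the replicate number as a block, 7 genes were called lower in each subset. That fit called 1204 and 1423 of the 11927 tested genes in either direction, against 1099 and 1298 in the main fit. Ciita in MHCII+CD11c- cells was then called (-0.87, adjusted p = 0.047), as was Cd74 in CD11c+MHCII+ cells (adjusted p = 0.0282), while H2-Ob there was not (adjusted p = 0.0589). Between the subsets the block changed no call of the 10 genes.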
